A study of Mus musculus with 6 samples.

Results

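The 42 genes described here copy the DNA (21 S phase genes) or divide the cell (21 mitosis genes). They were taken by symbol from the 26214 features of each count table, and all 42 were found and passed the filter on low counts. RNA sequencing had been done on ribosome-depleted total RNA of colon tumours from 3 Trim21 -/- samples (knockout) and 3 Trim21 +/+ samples (wild type). Mice of both genotypes had been given azoxymethane (AOM), a carcinogen, and dextran sulfate sodium (DSS), which injures the colon lining, so there was no untreated or tumour-free group. The labels give neither strain, age nor sex, nor whether each sample came from its own mouse, so the spread behind each p-value is that of these samples and may in part be technical. Libraries held 17937821 to 19987295 counts in the knockout and 27085599 to 29742757 in the wild type. Trim21 encodes a ubiquitin ligase and antibody receptor of the cytosol. It was at 12.1, 18.9 and 12.8 CPM (reads scaled to library size) in the knockout libraries, which thus still held Trim21 reads. In the wild-type libraries it was at 29.7, 20.3 and 19.5 CPM. The groups did not overlap, but edgeR did not call Trim21 (log2 fold change, knockout minus wild type, −0.67, adjusted p = 0.418). The 12 epithelial markers examined, among them Epcam and Cdh1, summed to 7918 to 8109 CPM in the knockout and 7418 to 8241 CPM in the wild type.

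In proliferating cells, E2F transcription factors switch on the genes of DNA replication at the end of G1. The MCM helicase is then loaded at origins and fired together with Cdc45 and the GINS complex. Later in the cycle the transcription factor Foxm1 and the MuvB complex with B-Myb drive the genes of mitosis, which the DREAM complex holds silent in resting cells. In the colon such genes are used by the dividing cells at the crypt base, and in tumours by the dividing tumour cells and by dividing stromal and immune cells.

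No member passed the test between knockout and wild-type tumours, and the differences were small. The log2 fold change (knockout minus wild type) was below 0 for 37 of 42 members, or 88.1%, against 52.1% of the 16281 genes tested. The median was −0.12 over the S phase members and −0.19 over the mitosis members, against −0.01 over all genes tested. With edgeR's quasi-likelihood test 0 of 42 members were called at an adjusted p under 0.05, where the share called over all genes was 0% in either direction. DESeq2 and limma-voom also called 0 members, where DESeq2 called 0.576% of genes lower and 1.48% higher. At an unadjusted p under 0.05, 2 members were lower (Ccne2 and Mcm10) and 0 higher, against 4.12% and 6.63% of all genes. In bulk tumour RNA, fewer dividing cells and less of these RNAs in each dividing cell cannot be told apart.

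These genes also differed between tumours of the same genotype. Knockout replicate 1 and wild-type replicates 1 and 3 were high, and knockout replicates 2 and 3 and wild-type replicate 2 were low. In the order of the replicates, mean log2 CPM of the S phase members was 5.15, 4.82 and 4.72 in the knockout and 5.11, 4.90 and 5.09 in the wild type. For the mitosis members it was 5.87, 5.47 and 5.33 in the knockout and 5.798, 5.42 and 5.97 in the wild type. Every one of the 3 high libraries exceeded every one of the 3 low ones for 20 of 21 mitosis members, Plk1 being the exception, and for 13 of 21 S phase members. This division was read off the values and is a description of the libraries only. Each genotype held libraries of both kinds, and both list means overlapped between the genotypes. Because the members moved together across libraries, their counts of direction are not independent of each other.

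**Figure D1:**
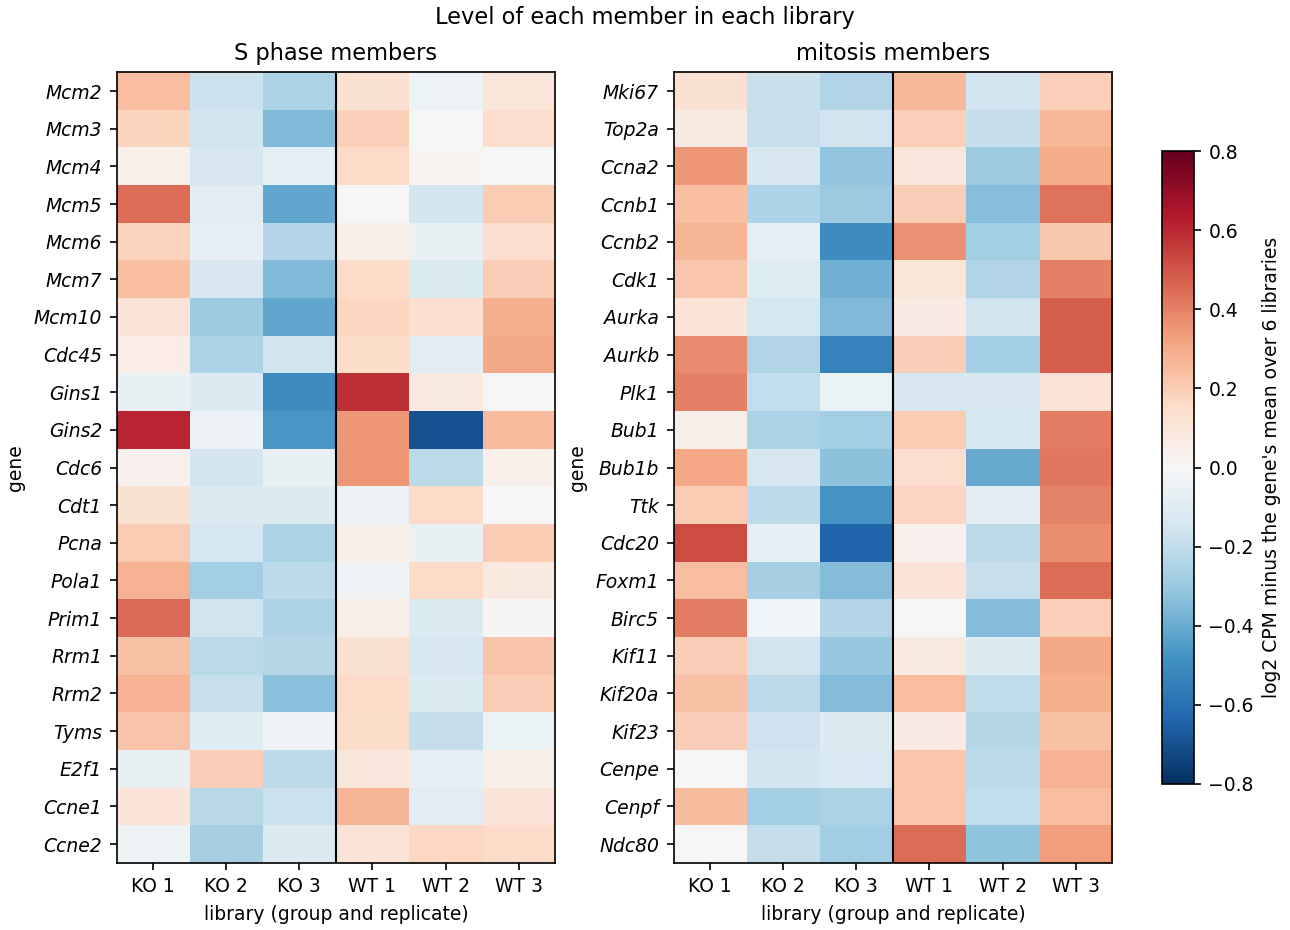
Log2 CPM of each member minus its mean over the 6 libraries, with genes in rows, libraries in columns and a line between knockout (KO) and wild type (WT). Red marks a library above the gene's mean: the columns of KO 1, WT 1 and WT 3 are mostly red and those of KO 2, KO 3 and WT 2 mostly blue, most evenly among the mitosis members.

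S phase and mitosis members did not follow the same libraries to the same degree. Wild-type replicate 3 held the highest value of all 6 libraries for 13 of 21 mitosis members but for 3 of 21 S phase members. Knockout replicate 1 was highest for 10 S phase and 5 mitosis members, and knockout replicate 3 lowest for 12 of each. The median ratio of wild-type replicate 3 to wild-type replicate 2 was 1.45 over the mitosis members and 1.11 over the S phase members, while that of knockout replicate 1 to knockout replicate 3 was 1.45 and 1.37. The S phase mean minus the mitosis mean, on the log2 CPM scale, was −0.72, −0.66 and −0.62 in the knockout and −0.69, −0.52 and −0.88 in the wild type. The knockout values lay inside the wild-type range, with means of −0.67 ± 0.05 and −0.70 ± 0.18 (SD, n = 3 each). With medians over members in place of means, knockout replicate 1 (−0.36) lay below the lowest wild-type value (−0.33).

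**Figure D2:**
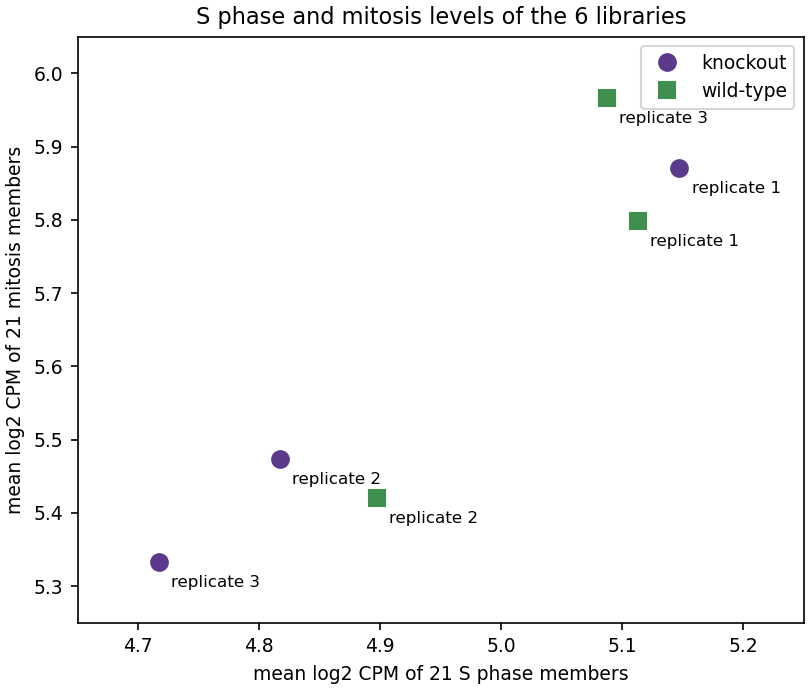
Mean log2 CPM of the S phase members (horizontal) against that of the mitosis members (vertical), 1 point per library, on axes that do not start at 0. At the upper right lie 3 libraries and at the lower left the other 3, each set with both genotypes; wild-type replicate 3 lies highest on the mitosis axis at 5.97 but below knockout replicate 1 on the S phase axis.

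Spread within a genotype also differed between the lists. Among S phase members the median coefficient of variation was 16.9% in the knockout and 9.11% in the wild type, and 18 of 21 members varied more in the knockout, against 46.1% of all genes tested. Knockout replicate 1 was the highest knockout library for 20 of these 21. Among mitosis members it was 21.7% and 18.7%, and 11 of 21 varied more in the knockout. The ratio of the highest to the lowest library had a median of 1.46 over the S phase members, from 1.21 for Cdt1 to 2.47 for Gins2. Over the mitosis members it was 1.70, from 1.37 for Top2a to 2.24 for Cdc20.

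Promoters of the 2 lists differed in their motifs, which describes the genes and not these samples. A link between the motifs and the libraries that each list followed was not tested. RefSeq windows of 300 bases on GRCm38.p6, from 250 bases before the start to 50 after it, were found for 34 of the 42 members, with 35 windows in all. The E2F site was searched as TTTGGCGC, TTTGCCGC, TTTCGCGC or TTTCCCGC, the cell cycle homology region (CHR, bound by MuvB complexes) as TTTGAA or TTTAAA, and the CCAAT box (bound by NF-Y) as CCAAT, on both strands, TTTAAA reading the same on both. An E2F site was found in 7 of 18 S phase windows (38.9%), in 1 of 17 mitosis windows (5.88%, Cdk1) and in 2.26% of all 32851 windows. A CHR was found in 16 of 17 mitosis windows (94.1%), all but that of Bub1, in 27.8% of S phase windows and in 27.6% of all windows. CCAAT was found in 88.2% of mitosis, 72.2% of S phase and 37.4% of all windows. A match is a description of letters and does not show binding.

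**Figure D3:**
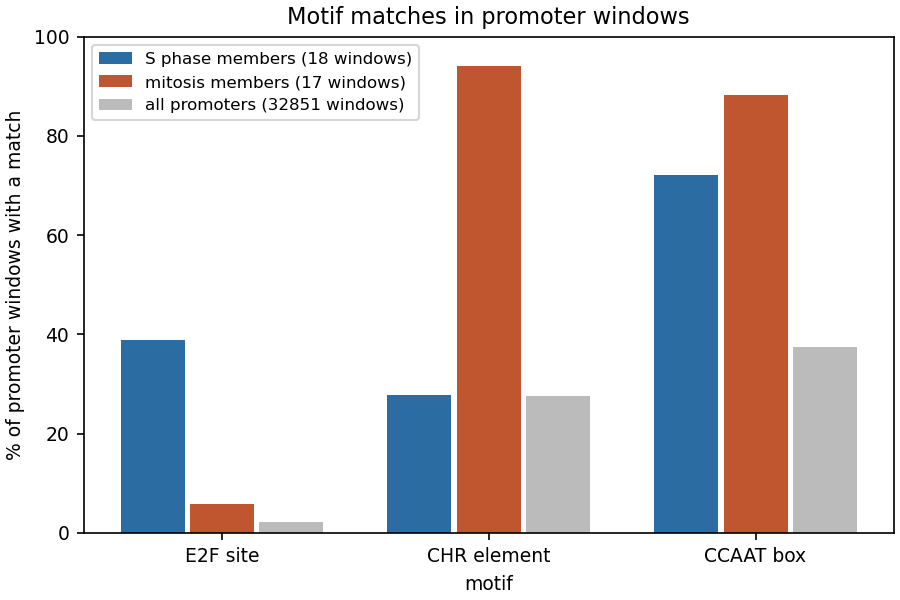
Share of promoter windows with at least 1 match to each motif, for S phase members, mitosis members and all RefSeq windows of the same length. The E2F bar is highest for S phase members (38.9%) and the CHR bar for mitosis members (94.1%), while CCAAT is frequent in both lists.

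The promoters that follow are those of the 2 members of each list with the smallest unadjusted p whose window holds the motifs known for that list, from 250 bases before the RefSeq start through the first 30 bases of the transcript, each on its own gene's strand. Capitals mark E2F sites in Mcm3 (chr1:20820283-20820562, minus strand) and Mcm7 (chr5:138171854-138172133, minus strand), and CHR and CCAAT in Ttk (chr9:83834439-83834718, plus strand) and Cenpe (chr3:135212313-135212592, plus strand).
Mcm3: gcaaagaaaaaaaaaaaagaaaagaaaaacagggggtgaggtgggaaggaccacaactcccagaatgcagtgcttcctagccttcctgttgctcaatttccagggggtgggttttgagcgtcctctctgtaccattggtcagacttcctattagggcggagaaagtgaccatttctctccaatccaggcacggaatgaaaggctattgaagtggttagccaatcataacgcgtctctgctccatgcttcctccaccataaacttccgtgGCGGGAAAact
Mcm7: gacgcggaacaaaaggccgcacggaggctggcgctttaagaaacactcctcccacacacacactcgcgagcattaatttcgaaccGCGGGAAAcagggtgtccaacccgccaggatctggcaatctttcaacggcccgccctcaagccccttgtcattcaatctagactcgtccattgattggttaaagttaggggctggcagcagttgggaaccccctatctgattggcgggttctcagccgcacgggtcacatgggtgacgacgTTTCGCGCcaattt
Ttk: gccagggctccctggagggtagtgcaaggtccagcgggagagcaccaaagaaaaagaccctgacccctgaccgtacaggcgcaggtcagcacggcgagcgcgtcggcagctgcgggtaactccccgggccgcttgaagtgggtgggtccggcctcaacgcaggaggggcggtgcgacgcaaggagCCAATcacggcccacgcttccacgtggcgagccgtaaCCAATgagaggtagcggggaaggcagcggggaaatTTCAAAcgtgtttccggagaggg
Cenpe: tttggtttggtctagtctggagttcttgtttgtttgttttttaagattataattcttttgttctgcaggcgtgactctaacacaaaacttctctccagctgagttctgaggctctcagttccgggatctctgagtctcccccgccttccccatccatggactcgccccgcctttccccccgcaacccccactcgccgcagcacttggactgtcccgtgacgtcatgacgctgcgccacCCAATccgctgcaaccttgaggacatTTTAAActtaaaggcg
The Mcm3 site TTTCCCGC lies on the opposite strand at bases 20 to 27 from the start, and a further site, TTTGGCGC, follows at bases 39 to 46, outside the printed part. Mcm7 holds a match 165 to 158 bases before the start and another at bases 17 to 24 from it. In Ttk the CCAAT boxes lie 65 to 61 and 28 to 24 bases before the start and the CHR (TTTGAA, opposite strand) at bases 8 to 13 from it. In Cenpe the CCAAT box lies 12 to 8 bases before the start and the CHR (TTTAAA) at bases 15 to 20 from it.

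Among the 10 replicative helicase genes, 9 had log2 fold changes below 0, the lowest being those of Gins1, Mcm10 and Cdc45. The 6 subunits of the MCM ring had smaller estimates. Of these, Mcm3 (−0.21, standard error 0.15) differed from Cdc45 (−0.24, standard error 0.17) by less than these errors. Mcm10, which helps to activate the loaded helicase (chromosome 2, 4989714 to 5012791, mm10), measured 24.6, 18.8 and 17.2 CPM in the knockout and 25.8, 25.2 and 28.1 CPM in the wild type. The groups did not overlap, although knockout replicate 1 came close to the wild type. Its log2 fold change was −0.38 (standard error 0.16, unadjusted p = 0.0491, edgeR adjusted p = 0.463). Gins1, a GINS subunit (chromosome 2, 150905400 to 150931280), measured 7.39, 7.13 and 5.43 CPM against 11.5, 8.12 and 7.69 CPM, again without overlap. Wild-type replicate 1 stood above the other 5 libraries, and the log2 fold change was −0.45 (standard error 0.23, edgeR adjusted p = 0.522). Mcm10, Gins1 and the cyclin gene Ccne2 were the 3 members, all of S phase, whose groups did not overlap. That is 7.14% of members, where 8.37% of all genes were lower and 9.49% higher without overlap, and 0 members were higher.

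Cdc45, the helicase cofactor, measured 12.5, 10.04 and 10.8 CPM in the knockout and 13.2, 11.2 and 14.8 CPM in the wild type, with overlap (log2 fold change −0.24, edgeR adjusted p = 0.633). Among the ring subunits, Mcm3 measured 48.7, 38.6 and 33.7 CPM against 49.2, 43.3 and 47.4 CPM, so that knockout replicate 1 matched the wild type and knockout replicates 2 and 3 lay below it (log2 fold change −0.21, adjusted p = 0.629). Mcm4 measured 71.2, 62.9 and 65.8 CPM against 76.8, 69.7 and 68.9 CPM, with knockout replicate 1 inside the wild-type range (log2 fold change −0.11, adjusted p = 0.699). The other ring subunits Mcm2, Mcm5, Mcm6 and Mcm7 had log2 fold changes of −0.10, −0.0014, −0.07 and −0.15. All 4 had their highest value in knockout replicate 1 and their lowest in knockout replicate 3, and the sign for Mcm5 turned under other scalings. For Gins2, another GINS subunit, with a log2 fold change of 0.06, 67.3% of exon bases overlap exons of Gse1 on the opposite strand. The handling of strand in the counting is not given in the sources used here, so the reads of these genes cannot be told apart.

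Genes of origin licensing, DNA synthesis and nucleotide supply differed little between the genotypes, and none of the 8 passed or separated the groups. Pcna, the sliding clamp of DNA polymerase, measured 170.6, 134.7 and 124.4 CPM in the knockout and 153.2, 142.7 and 170.8 CPM in the wild type. Knockout replicate 1 and wild-type replicate 3 were nearly equal at the top, and the log2 fold change was −0.12 (standard error 0.14, edgeR adjusted p = 0.763). Per kilobase of exon, Pcna was the most abundant member, at 59.7 ± 10.1 CPM per kilobase in the knockout and 64.8 ± 5.92 in the wild type (SD, n = 3). In CPM, Mki67 and Top2a were higher. Cdc6 and Cdt1, which load the MCM ring, had log2 fold changes of −0.14 and −0.07. Pola1 and Prim1, the polymerase and a primase subunit that start each new strand, had −0.12 and 0.07. The ribonucleotide reductase genes Rrm1 and Rrm2 both had values of about the list median (−0.13 and −0.14), and the thymidylate synthase gene Tyms had 0.07.

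Of the G1/S regulators, Ccne2 gave the smallest p of all 42 members. This cyclin E gene (chromosome 4, 11191351 to 11204779) measured 39.2, 33.5 and 37.2 CPM in the knockout and 43.2, 45.2 and 44.7 CPM in the wild type. Its groups did not overlap and its wild-type libraries were close together, with a coefficient of variation of 2.42%. The log2 fold change was −0.28 (standard error 0.10, unadjusted p = 0.0298, edgeR adjusted p = 0.420), a level of 82.4% of the wild type. Exons of Ints8 on the opposite strand cover 17.4% of its exon bases. The other cyclin E gene, Ccne1, had a log2 fold change of −0.19 and E2f1, the activating E2F factor, −0.04, and both overlapped between groups.

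Mitosis members had the larger median difference but also the larger errors, with a median standard error of 0.20 against 0.17 for S phase, and in 0 of the 21 did the groups stay apart. Mki67, the gene of the proliferation marker Ki-67, measured 472.8, 384.9 and 368.5 CPM in the knockout and 520.3, 390.3 and 496.8 CPM in the wild type. Wild-type replicate 2 lay among the knockout values and knockout replicate 1 near the other wild-type values. The log2 fold change was −0.20 (standard error 0.15, edgeR adjusted p = 0.634). Top2a, the topoisomerase that untangles sister chromatids, measured 283.0, 236.9 and 241.6 CPM against 306.8, 235.9 and 323.6 CPM. Its lowest library was wild-type replicate 2 and its highest wild-type replicate 3, so the range of the wild type enclosed that of the knockout (log2 fold change −0.19, adjusted p = 0.639).

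The spindle checkpoint genes had a median log2 fold change of −0.21 and the kinetochore genes one of −0.20, beside −0.25 for the mitotic kinases. Bub1, a checkpoint kinase at the kinetochore, measured 33.7, 27.4 and 26.9 CPM in the knockout and 37.6, 29.6 and 43.3 CPM in the wild type. Only knockout replicate 1 reached into the wild-type range, and the log2 fold change was −0.33 (standard error 0.17, edgeR adjusted p = 0.524). Ttk, the kinase that starts checkpoint signalling, measured 20.6, 15.4 and 12.9 CPM against 20.1, 16.8 and 23.4 CPM (log2 fold change −0.30, adjusted p = 0.622), again with only knockout replicate 1 inside the wild-type range. Bub1b, another checkpoint gene, and Cdc20, the activator of the anaphase-promoting complex, had −0.12 and −0.07, with knockout replicate 1 at 52.1 and 40.0 CPM and knockout replicate 3 at 33.4 and 17.9 CPM.

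Ndc80, which anchors microtubules at the kinetochore, measured 13.2, 11.6 and 10.9 CPM in the knockout and 18.04, 10.6 and 16.7 CPM in the wild type. Wild-type replicate 2 was the lowest of all 6 libraries, and the log2 fold change was −0.34 (standard error 0.23, edgeR adjusted p = 0.600). Cenpe, the kinetochore motor, measured 50.5, 45.5 and 46.5 CPM against 59.0, 43.7 and 61.5 CPM, with the same wild-type library lowest (log2 fold change −0.20, adjusted p = 0.626). Its kinetochore partner Cenpf had −0.17.

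The mitotic kinase genes had fold changes of both signs, none of which passed. Aurka, the centrosomal Aurora kinase, measured 29.8, 25.2 and 21.7 CPM in the knockout and 29.1, 24.9 and 38.9 CPM in the wild type, where wild-type replicate 3 stood above the rest (log2 fold change −0.28, standard error 0.20, edgeR adjusted p = 0.629). Aurkb, the kinase of the chromosomal passenger complex, had −0.25, and Birc5 (survivin), a subunit of the same complex, had 0.11. Plk1, a kinase of mitotic entry and spindle assembly, had the highest value of the list at 0.12, with knockout replicate 1 at 80.4 CPM and the other 5 libraries between 53.0 and 65.8 CPM. The cyclin genes Ccna2, Ccnb1 and Ccnb2 and their kinase Cdk1 had −0.06, −0.21, −0.19 and −0.18. Foxm1, the transcription factor of this programme, had −0.24. The spindle and cytokinesis motors Kif11, Kif20a and Kif23 had −0.17, −0.21 and −0.06, and for Kif20a exons of Cdc23 on the opposite strand cover 29.3% of exon bases.

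**Figure D4:**
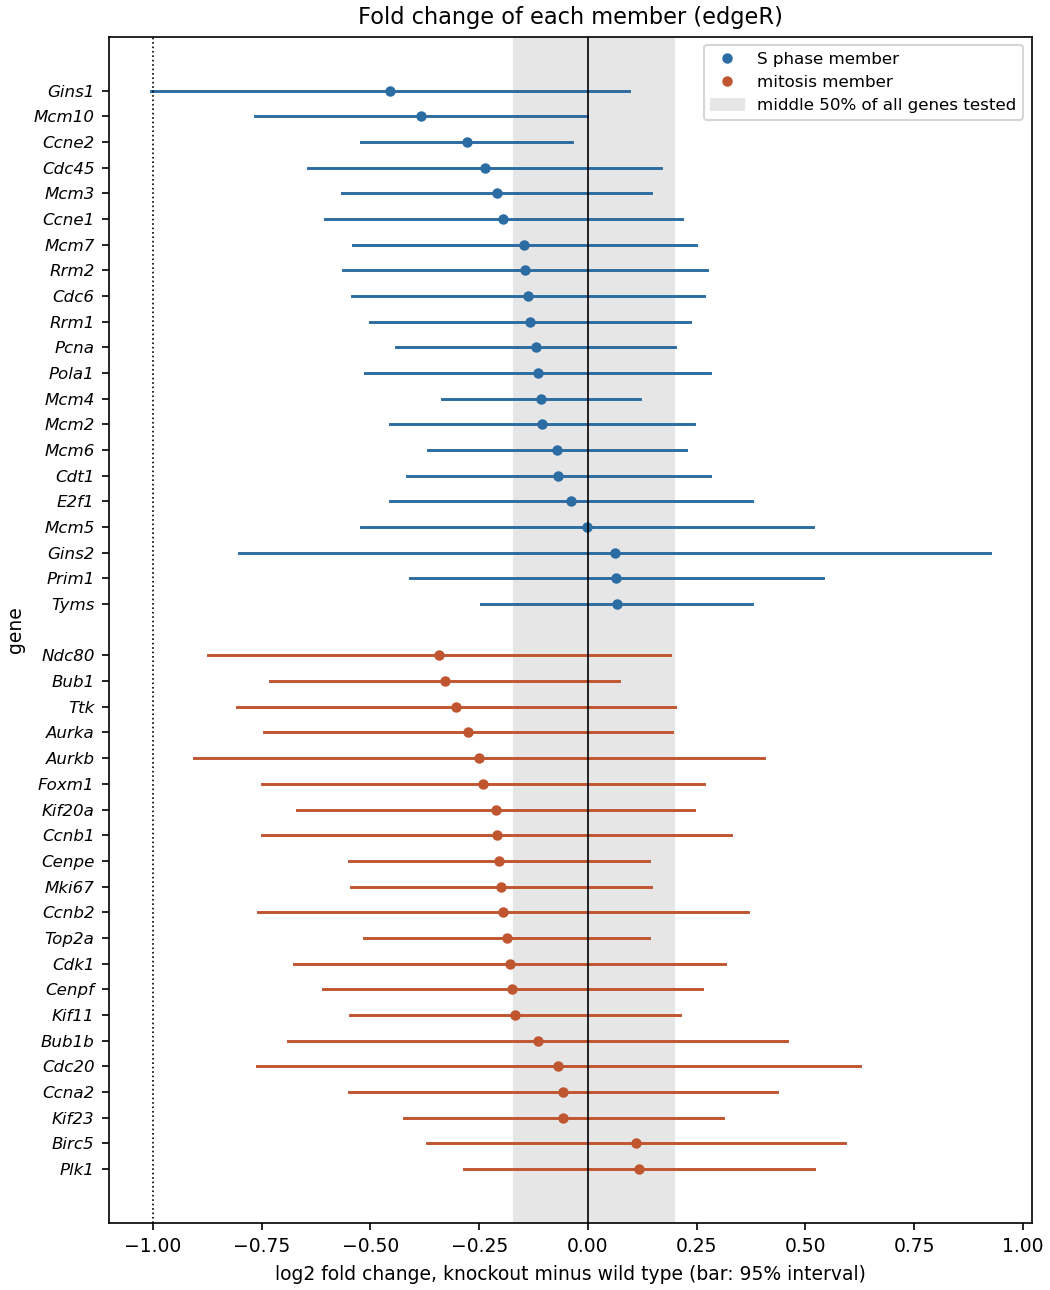
Log2 fold change (knockout minus wild type) of each member from edgeR, with its 95% interval, in order of size within each list; the grey band holds the middle 50% of all genes tested and the dotted line marks a halving. Points lie mostly left of 0, and all intervals but those of Ccne2 and Mcm10 include 0.

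The intervals limit how large a difference these data allow. The 95% interval included 0 for 40 of 42 members. It excluded a halving in the knockout for 41 of 42, Gins1 being the exception with a lower bound of −1.004. The median interval reached 0.394 to either side of the fold change among S phase members and 0.480 among mitosis members, wider than the median difference of either list.

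Of the 6 libraries, leaving out knockout replicate 1 moved the medians of both lists most. Without it, the median log2 fold change was −0.27 over the S phase members and −0.36 over the mitosis members, and all 42 members lay below 0. Then 23 members (16 of S phase and 7 of mitosis), or 54.8%, had both remaining knockout values below every wild-type value, against 17.0% of all genes. Without wild-type replicate 2, 12 members (28.6%) were lower without overlap, against 14.1% of all genes, and the medians were −0.20 and −0.33. Leaving out knockout replicate 3 put the medians at −0.03 and −0.09, and leaving out wild-type replicate 3 at −0.09 and −0.06. Leaving out knockout replicate 2 gave an S phase median of −0.08. With each of the 6 libraries left out in turn, 0 members were called, and the smallest adjusted p of a member was 0.326, for Ndc80 without wild-type replicate 2.

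**Figure D5:**
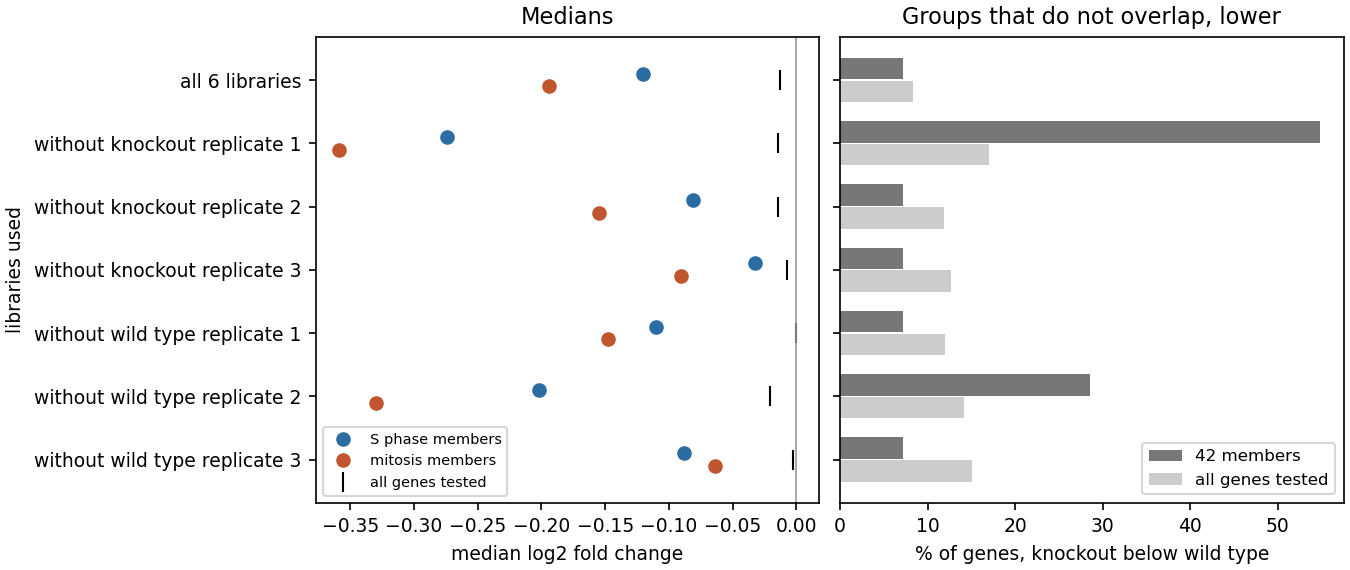
Left, median log2 fold change of the S phase members, the mitosis members and all genes tested, with all 6 libraries and with each left out. Right, share of the 42 members and of all genes tested whose knockout values all lie below all wild-type values; the member bar reaches 54.8% without knockout replicate 1 and stays at 7.14% in 4 of the other 5 omissions.

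Among 148 further cell cycle genes in 7 lists, 0 passed edgeR's test in either direction, 0 by DESeq2 and 0 by limma-voom. At an unadjusted p under 0.05, 5 (3.38%) were lower and 2 (1.35%) higher, both shares under those of all genes (4.12% and 6.63%). In the list of other mitosis genes 32 of 40 were below 0 (median −0.16), with the cohesin protector gene Cdca5 at −0.47 and the condensin genes Smc2 and Ncapg at −0.30 and −0.26. The other replication factors had 23 of 30 below 0 (median −0.05), with the fork protection gene Timeless at −0.41, the kinase activator gene Dbf4 at −0.26 and Gins3 at −0.27. The other nucleotide and S phase chromatin genes had 11 of 14 below 0 (median −0.06), among them Dut (−0.35), Rrm2b (−0.21) and Hells (−0.20).

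Checkpoint and fork protection genes had 14 of 16 below 0 (median −0.10). Topbp1, which activates the checkpoint kinase Atr, measured 92.9, 85.0 and 90.3 CPM in the knockout and 108.6, 102.8 and 109.9 CPM in the wild type, without overlap (log2 fold change −0.26, standard error 0.08, edgeR adjusted p = 0.380, the smallest of the 148). Brca1 and Chek1 had −0.25 and −0.23 and also did not overlap. Of the G1 cyclins and kinases, 11 of 14 were below 0 (median −0.15), with the cyclin D partner Cdk4 at −0.34 and the CDK-binding gene Cks1b at −0.42, while the Myc family gene Mycn was at 0.70. In the E2F and pocket protein family 11 of 17 were below 0 (median −0.02), Tfdp1 and E2f3 at −0.24 and −0.19 and the retinoblastoma gene Rb1 at 0.20.

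The CDK inhibitors and antiproliferative genes were the only one of the 7 lists with a median above 0, at 0.07 with 13 of 17 above 0. Btg2, an antiproliferative gene, measured 151.0, 159.9 and 185.2 CPM in the knockout and 103.1, 143.7 and 130.9 CPM in the wild type, without overlap (log2 fold change 0.39, standard error 0.14, edgeR adjusted p = 0.418). Cdkn1b, the gene of the CDK inhibitor p27, measured 55.6, 58.0 and 66.4 CPM against 46.3, 53.3 and 52.6 CPM (0.24, adjusted p = 0.497). Wee1, whose kinase holds back Cdk1, had 0.30. All 3 had higher values in each knockout library than in any wild-type library, and none passed. Over all 148 further genes, 6 (4.05%) were higher and 8 (5.41%) lower without overlap, against 9.49% and 8.37% of all genes. The genes of the inhibitor list with the lowest fold changes, picked after their values were seen, were Gas1 (−0.69), Cdkn2a (−0.61) and Ccng1 (−0.36), each with groups that overlapped.

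Markers of other cell types also differed between the libraries. Crypt stem cell markers (11 of 11 below 0, median −0.32) summed to 1605, 1604 and 1464 CPM in the knockout, in the order of the replicates, and to 2159, 1882 and 1772 CPM in the wild type, and these sums did not overlap. Goblet cell markers (8 of 8 above 0, median 1.06) summed to 7613 to 13080 CPM in the knockout and 1982 to 7742 CPM in the wild type. Mature colonocyte markers (9 of 10 above 0, median 1.13) summed to 1008 to 1209 CPM and 858.6 to 1156 CPM. Their sums overlapped, but their mean log2 CPM did not. It was 6.16, 5.68 and 5.95 in the knockout and 3.505, 4.97 and 5.01 in the wild type. Of the marker lists given here edgeR called 0 genes, and DESeq2 called 3 each of the goblet, colonocyte, smooth muscle and plasma cell markers, 2 fibroblast markers and 1 macrophage marker. Fibroblast markers (10 of 10 above 0, median 0.48) summed to 2360, 3398 and 3620 CPM in the knockout, in the order of the replicates, and to 2685, 2565 and 1707 CPM in the wild type. Knockout replicates 2 and 3, where the members were low, were the highest, and wild-type replicate 3, where the mitosis members were high, was the lowest, but wild-type replicate 2, where the members were low, was below wild-type replicate 1. Macrophage markers (7 of 8 above 0, median 0.50) summed to 333.1, 452.6 and 430.9 CPM against 316.8, 342.9 and 324.3 CPM. In these sums knockout replicates 2 and 3 and wild-type replicate 2, where the members were low, all lay above the remaining libraries. In mean log2 CPM this order did not hold, as knockout replicate 1 (5.198) lay above wild-type replicate 2 (5.138). The order of the sums was read off the values. Smooth muscle markers (10 of 10 above 0, median 1.01) summed to 1555, 949.5 and 1088 CPM in the knockout. In the wild type they summed to 339.7, 868.5 and 664.7 CPM. Knockout replicate 1 was highest and wild-type replicate 1 lowest, and the members were high in both. Plasma cell markers (5 of 6 above 0, median 1.61) summed to 1502 to 3761 CPM and 797.8 to 1225 CPM. B cell markers (5 of 5 above 0, median 0.70) summed only to 10.01 to 33.0 CPM and 2.72 to 21.6 CPM. Neutrophil markers had 5 of 7 below 0 (median −0.33). They summed to 166.6, 230.7 and 299.5 CPM in the knockout and 316.7, 290.3 and 149.5 CPM in the wild type. Endothelial markers had 7 of 8 above 0 (median 0.38) and T cell markers 6 of 7 (median 0.61). Of the germinal centre B cell markers, 3 of 5 were tested, with 2 below 0 (median −0.15). Set against the epithelial markers, the S phase members stood at −3.50, −3.67 and −3.71 in the knockout and −3.04, −3.57 and −3.49 in the wild type, as mean log2 CPM minus that of the 12 epithelial markers. The mitosis members stood at −2.77, −3.01 and −3.10 against −2.36, −3.05 and −2.61. On this scale the groups still overlapped for both lists. The knockout minus wild-type difference of the means was −0.26 for S phase and −0.29 for mitosis, against −0.14 and −0.17 without the epithelial markers. The epithelial mean log2 CPM was 8.64, 8.48 and 8.43 in the knockout and 8.15, 8.47 and 8.58 in the wild type. Wild-type replicate 1, with the lowest epithelial mean, stood highest on this scale for both lists. The wider difference thus rests largely on that library. The part of these cell types, and of the lower depth of the knockout libraries, in the members' values was not tested.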

How the data were processed

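The authors deposited a table of raw counts by gene symbol for each of the 6 samples. Per the submitters' processing notes, mm10, TopHat2, edgeR and limma were used, without versions or roles. The read counter and its strand setting were not given in the sources used here. Groups and replicate numbers came from the labels.

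Counts were analysed in R 4.3.3 with edgeR 4.0.16 (quasi-likelihood test, group as the only term, TMM factors 0.977 to 1.02, filterByExpr, 16281 genes tested, two-sided, Benjamini-Hochberg over all of them, threshold 0.05). CPM were computed here on TMM-scaled library sizes, and mean log2 CPM used a prior count of 2. Standard errors are the fold change divided by the square root of F. DESeq2 1.42.0 and limma-voom (limma 3.58.1) were alternatives. The scripts were tested on simulated data. Positions and exon lengths come from GENCODE M21 (GRCm38, which mm10 denotes) and promoters from RefSeq (GRCm38.p6).

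Every member is named. Values per library are given for Mki67, Pcna and Top2a and the 6 members of each list with the smallest unadjusted p, and 3 genes are named per further list. The members and lists were chosen with earlier results of these data known. Replicates of a genotype were farther apart than counting error alone allows (chi-square per degree of freedom 20.9 to 103).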

Additional observations from a re-analysis of the deposited data

How the results depend on the processing

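Members called stayed at 0 of 42 and further cell cycle genes called at 0 of 148 in all 14 alternatives. The S phase median lay between −0.27 and −0.03 and the mitosis median between −0.36 and −0.06 when single libraries were left out, and between −0.13 and −0.11 and between −0.20 and −0.19 in the 8 other settings. Over all genes, DESeq2 called 336 genes where edgeR called 0, and edgeR called 1 (Eif2s3y) without wild-type replicate 3, so leaving out libraries gave 0 to 1. At an unadjusted p under 0.05, edgeR found 1080 genes higher and 670 lower. The members without overlap numbered 3 with library totals only and 3 to 23 without single libraries, a setting chosen after the data were seen. Taking medians over members in place of means, the S phase minus mitosis level became −0.36, −0.19 and −0.23 for knockout replicates 1 to 3 and −0.25, 0.016 and −0.33 for wild-type replicates 1 to 3, so wild-type replicate 2 stayed highest and knockout replicate 1 became lowest. The cause was not tested. A prior count of 0.5 moved these levels by less than their spread.

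The sign of Mcm5 turned with upper quartile scaling (0.0039), library totals only (0.0037) and the filter that asked for a CPM of 1 or more in 3 libraries (0.0015). Leaving out single libraries turned the sign of 13 members, whose log2 fold changes then ranged from −0.26 to 0.18 for Mcm5, −0.18 to 0.020 for Mcm6, −0.27 to 0.28 for Gins2, −0.27 to 0.020 for Cdc6, −0.18 to 0.19 for Prim1, −0.029 to 0.16 for Tyms and −0.16 to 0.049 for E2f1. The ranges were −0.27 to 0.084 for Ccna2, −0.074 to 0.23 for Plk1, −0.31 to 0.085 for Bub1b, −0.40 to 0.17 for Cdc20, −0.084 to 0.24 for Birc5 and −0.17 to 0.053 for Kif23.

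With the replicate number as a block, 0 genes and 0 members were called, 0 members were lower at an unadjusted p under 0.05, and the medians were −0.13 and −0.19. Same-numbered libraries deviated from their group means with correlations of −0.147, −0.175 and −0.0734, so they did not deviate together. The labels do not say whether the numbers pair the samples, and correlations among so few libraries cannot exclude it. With 3 libraries a group, the 95% intervals of single members reached a median of 0.409 on the log2 scale to either side, which limits the differences that could be detected.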

Other observations

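Eif2s3y, a translation initiation factor gene of the Y chromosome, separated the wild-type libraries and was picked out after its values were seen. It measured 59.9, 64.2 and 66.5 CPM in knockout replicates 1 to 3 and 7.95, 5.65 and 55.8 CPM in wild-type replicates 1 to 3. Other Y-linked genes did not show this split: Ddx3y lay between 91.8 and 129.1 CPM, Kdm5d between 44.8 and 55.1 CPM and Uty between 36.1 and 56.8 CPM over the 6 libraries. Xist, expressed from the inactive X chromosome of females, was at 0.220 to 3.96 CPM. In the members, wild-type replicates 1 and 2, which were low for Eif2s3y, lay on opposite sides, replicate 1 among the high and replicate 2 among the low libraries.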
